A study of Mus musculus with 8 samples.

Results

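Motile cilia genes were the 48 genes of a fixed list (regulators of ciliation, dynein arm subunits and their assembly factors, radial spoke and central pair components, nexin link and ruler proteins, and proteins inside the doublet microtubules), matched by symbol to the normalized count table. All 48 were among its 16119 genes. Their RNA was followed in 8 mouse libraries, 2 in each of 4 groups. Thyroid follicular cell organoids (TFCOs), which are epithelial spheres grown from dissociated thyroid of female wild type C57BL/6 mice, were sequenced early in culture, after fewer than 4 passages, and late, after more than 6 passages. The same 2 lines, mThy14 and mThy16, make up both passage groups, and each line comes from the cells of a single thyroid. They grew in basement membrane extract in a medium with R-spondin 3, A83-01, forskolin, EGF and FGF10. The tissues were 2 samples of adult mouse thyroid and 2 samples of adult mouse lung, the latter as an unrelated control, with no genetic change in any group; the age of the mice is not given in the sources used here.

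Motile cilia beat, and in the lung they stand in large numbers on each multiciliated cell of the airway. Each holds a ring of doublet microtubules, with outer and inner dynein arms as motors, radial spokes and a central pair that coordinate the arms, and nexin links that turn sliding into bending. The transcription factor FOXJ1 switches on the genes of this machinery together with RFX factors. MCIDAS starts the multiciliated programme, and CCNO is needed where a cell makes many basal bodies. Thyroid follicular cells carry primary cilia, which share intraflagellar transport but lack most of the motor parts.

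Depth was 9755081 to 16904865 reads on genes per library. By genes that are wholly missing, the libraries formed 2 sets across the groups. Thyroid tissue 2 and the lung tissues had no read of 44 genes that were at 50 or more normalized counts in every other library, and for 16 genes it was the other way round. Lung and TFCO libraries therefore lie wholly in different sets, and for that comparison tissue and set cannot be told apart. Among the motile cilia genes, 0 were at 0 throughout a set, and 3 of 48, ROPN1L, SPAG6 and AK7, did not overlap between the sets, against 43.6% of all genes tested. The set of thyroid tissue 2 also holds lung. A gene high in lung and low in thyroid tissue 2 can overlap the other set for that reason alone. The low count therefore does not show that the members are free of a difference between the sets. The markers of thyroid follicular cells (TG, PAX8, TSHR, FOXE1 and HHEX) summed to between 17528 and 151565 normalized counts in TFCOs, to 1540425 and 2189410 in thyroid, and to 365 and 499 in lung. Nearly all of the thyroid sums was TG, the thyroglobulin gene (1526002 and 2175016), whereas the transcription factor PAX8 had 3925 to 8273 in TFCOs and 8300 and 5714 in thyroid, and the TSH receptor gene TSHR 1882 to 8582 in TFCOs and 1287 and 1087 in thyroid. Of these markers, none was at 0 in any TFCO or thyroid library, while no lung library had a read of PAX8.

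Taken as a whole, the 48 genes made up 0.145% and 0.127% of all normalized counts in lung tissues 1 and 2, but 0.0372% and 0.0276% in the thyroid tissues. Among the organoids the share followed the line: it was 0.0261% in early and 0.0178% in late mThy14, and 0.0948% in early and 0.0995% in late mThy16. FOXJ1 alone carried much of the mThy16 share: over the other 47 genes it was 0.0439% and 0.0499% in mThy16, 0.0259% and 0.0145% in mThy14, 0.03699% and 0.0275% in thyroid, and 0.135% and 0.118% in lung. The median of the 48 genes was 178 and 176 normalized counts in the lung libraries, 31.0 and 11.99 in the thyroid libraries, 26.7 and 24.5 in mThy14, and 66.8 and 54.8 in mThy16. Lung was thus the highest source by these measures, and mThy16 lay between lung and the other sources, nearer to thyroid tissue 1 than to lung once FOXJ1 was left out. Single genes departed from this order, as the map of all members by library shows. In bulk RNA, a smaller share of ciliated cells and less RNA per ciliated cell cannot be told apart.

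**Figure D1:**
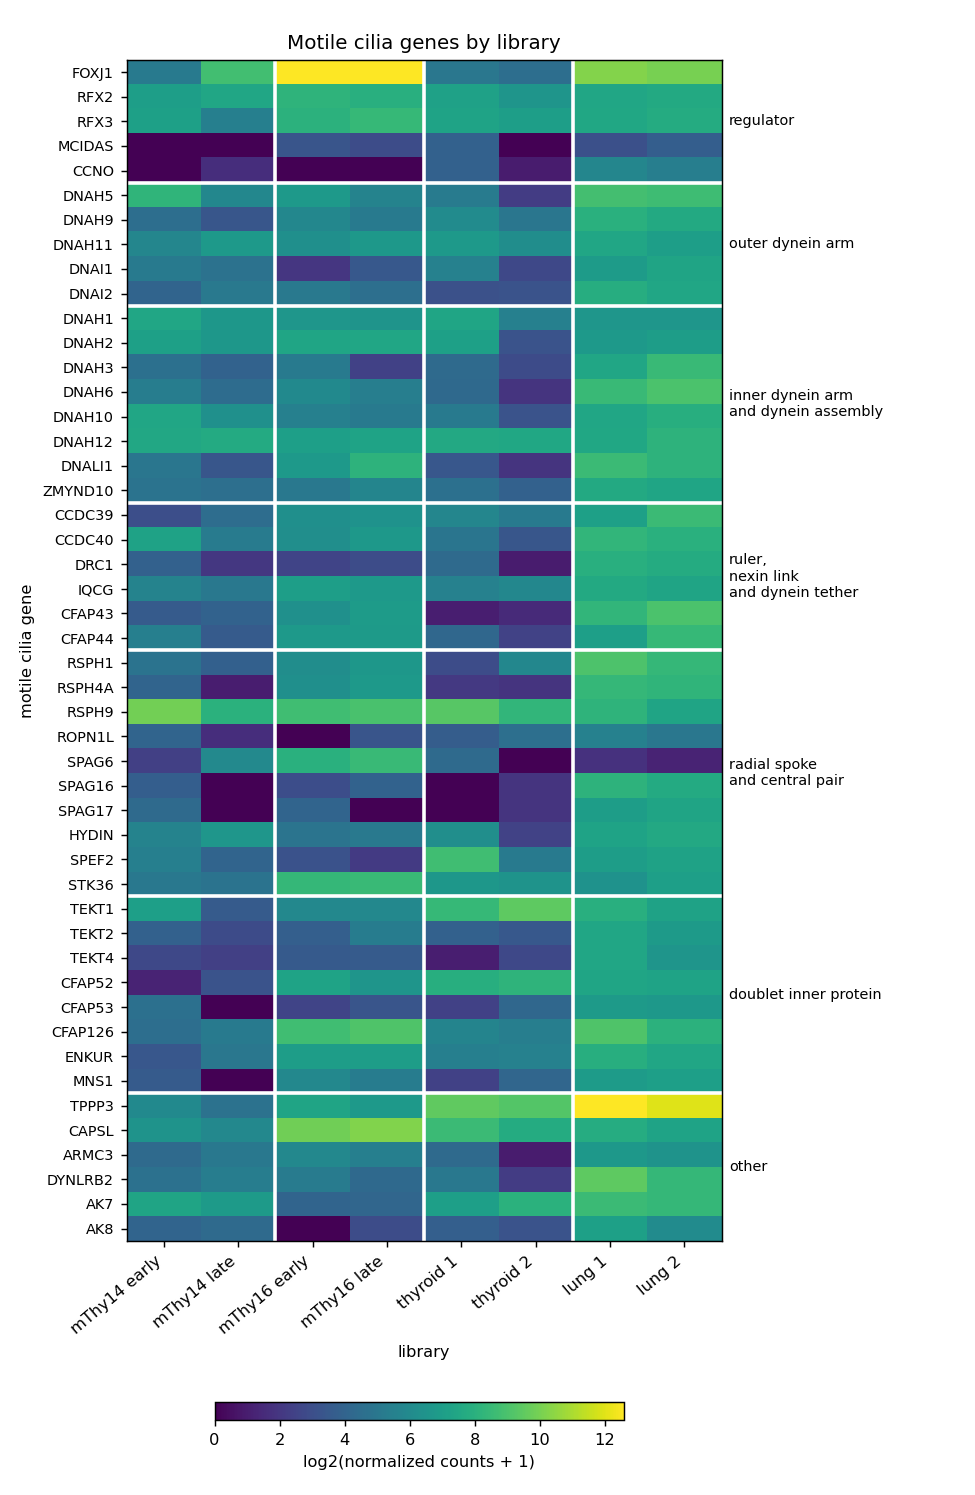
Level of each of the 48 motile cilia genes (rows, grouped by role) in each of the 8 libraries (columns), as log2(normalized counts + 1). FOXJ1 is among the brightest rows in mThy16, TPPP3 in lung, and most axonemal genes are brightest in lung 1 and lung 2.

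FOXJ1 (GRCm38 chr11:116330704-116335399, minus strand) stood at 35.1 normalized counts in early and 442 in late mThy14, 6122 in early and 6016 in late mThy16, 30.5 and 22.1 in thyroid, and 1241 and 1019.9 in lung. All 4 TFCO libraries thus lay above both thyroid tissues, mThy16 lay above lung, and mThy14 lay below lung. Early mThy14 lay only narrowly above thyroid tissue 1, on 25 reads against 28. Per kilobase of exon, FOXJ1 ranked 1 among the 46 members with a length in mThy16, at a mean of 2314 normalized counts per kb, against 3 in lung at 431 and 17 in thyroid at 10.0. In mThy14 it ranked 2, at a mean of 91.0, with 13.4 in the early and 169 in the late library. With the passages of each line averaged, FOXJ1 differed between TFCOs and thyroid tissue by 5.02 on the log2 scale (SE 1.54), which did not pass the test (limma, adjusted p = 0.145). Lung and thyroid differed by 5.38 (SE 1.54, adjusted p = 0.0907), and TFCOs and lung differed by -0.36 (SE 1.54, adjusted p = 0.869), with 1 line above and 1 line below the lung level.

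The other regulators differed less across libraries or were scarcely detected. RFX2, an RFX factor of ciliated cells, stood at 131 and 174 normalized counts in early and late mThy14, 296 and 243 in mThy16, 145 and 94.96 in thyroid, and 177 and 198 in lung. RFX3, its close relative, had 141 and 41.6 in mThy14, 268 and 343 in mThy16, 158 and 134 in thyroid, and 179 and 212 in lung. Both RFX genes were thus highest in mThy16, and both were present in every source, thyroid tissue included. RFX2 differed from thyroid by 0.77 (SE 0.55, adjusted p = 0.451) in TFCOs and by 0.67 (SE 0.55, adjusted p = 0.487) in lung, and RFX3 by 0.072 (SE 0.71, adjusted p = 0.961) and 0.42 (SE 0.71, adjusted p = 0.741), on the log2 scale by limma.

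MCIDAS, which starts the multiciliated programme, was at 0 in both mThy14 libraries and in thyroid tissue 2, at 8.91 and 6.71 normalized counts in early and late mThy16, at 14.2 in thyroid tissue 1, and at 7.54 and 12.8 in lung. CCNO, a cyclin-like protein needed for basal body amplification, was at 0 in 3 TFCO libraries and at 2.08 in late mThy14, against 14.2 and 0.922 in thyroid and 53.6 and 40.4 in lung. The lung level of CCNO was 82.8 times that of TFCOs, with an exact 95% counting interval of 22.5 to 692 that covers counting error only, since it rests on 2 reads in all TFCOs. The high FOXJ1 of mThy16 therefore stood beside 0 reads of CCNO in both libraries of that line. CCNO passed the filter on low values only through the lung libraries, where it is high, so its ratio is a description only. MCIDAS passed it through lung tissue 2 and thyroid tissue 1. Neither MCIDAS nor CCNO passed the test between lung and thyroid (limma, 1.48, SE 1.63, adjusted p = 0.603 and 3.14, SE 1.23, adjusted p = 0.188). MCIDAS did not pass between TFCOs and thyroid either (-0.40, SE 1.63, adjusted p = 0.905). For CCNO, TFCOs against thyroid gave an adjusted p = 0.396.

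**Figure D2:**
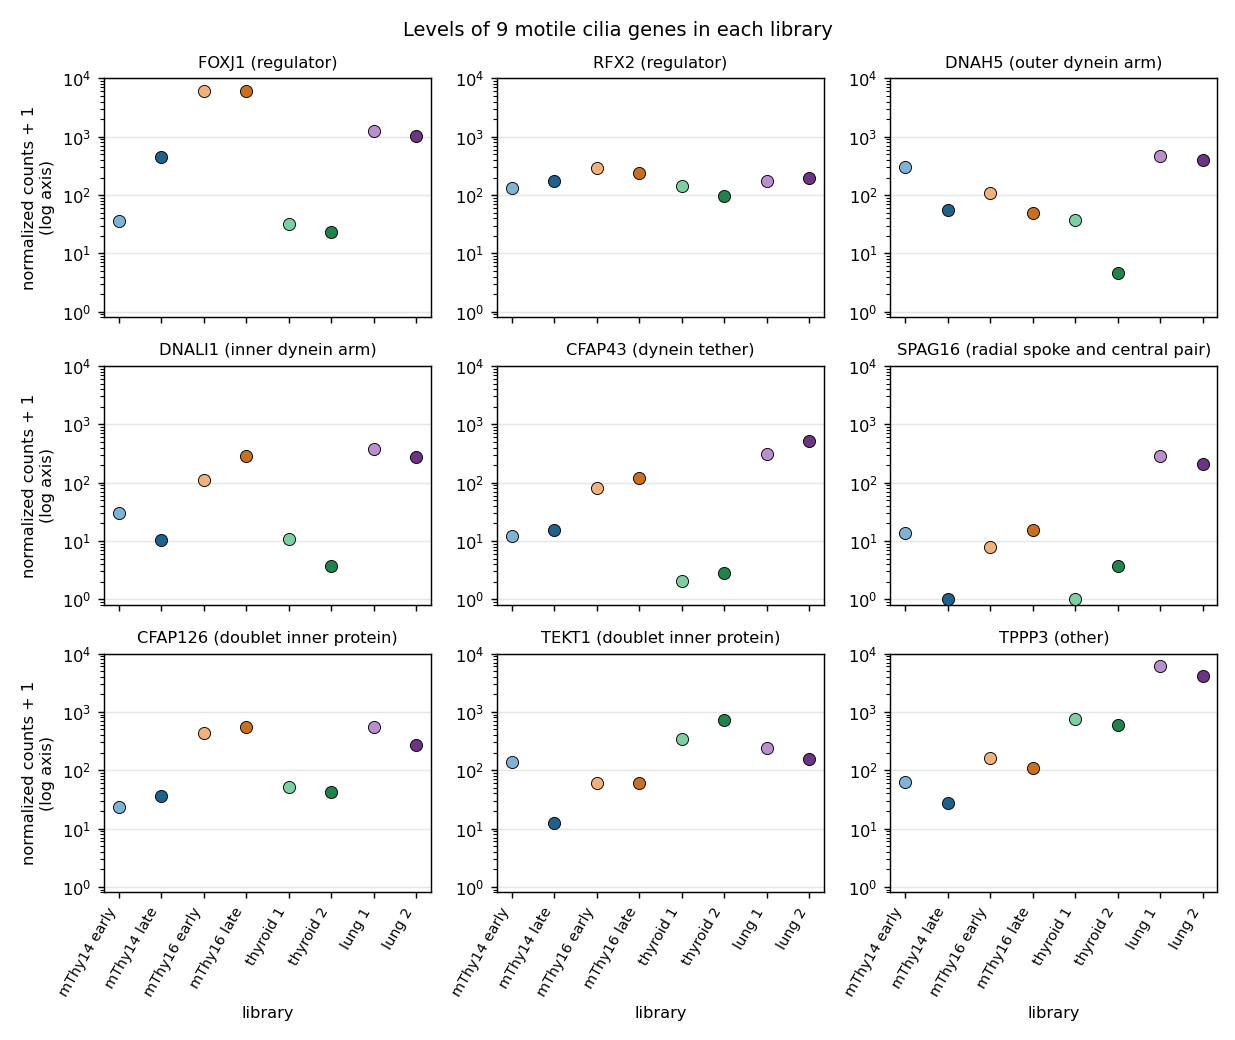
Normalized counts + 1 (log axis) of 9 motile cilia genes in each of the 8 libraries, with 1 point per library and blue for mThy14, orange for mThy16, green for thyroid and purple for lung (lighter for the early passage or tissue 1). FOXJ1 lies at 6016 or more in both mThy16 libraries, above lung, whereas SPAG16 stays below 15 normalized counts in all 4 TFCO libraries and above 200 in lung.

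Lung against thyroid tissue compared a tissue known to hold multiciliated cells with one whose follicular cells carry primary cilia. On the log2 scale, 13 of the 48 genes were higher in lung and 0 were lower at an adjusted p under 0.05 (limma), against 3.16% and 2.89% of the 14703 genes tested. The median difference of the 48 genes was 3.10, beside -0.03 over all genes tested, and 43 of 48 differences were positive. At an unadjusted p under 0.05, 30 of the 48 genes passed, against 22.9% of all genes. Both lung libraries lay above both thyroid libraries in 37 of the 48 genes, against 27.5% of all genes, and below both in 3 genes, RSPH9, TEKT1 and CFAP52, against 26.2%. Leaving out either lung library left 0 called, and within the set that holds thyroid tissue 2 and lung the median difference was 3.43, with 44 of 48 above 0.

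The called genes cover the dynein arms, the tethers and the central pair. DNAH5, a heavy chain of the outer dynein arm, had 460 and 404 normalized counts in lung against 37.0 and 3.69 in thyroid, a log2 difference of 5.02 (SE 1.03, limma adjusted p = 0.0380). It had 298 and 55.2 in early and late mThy14 and 106 and 48.1 in mThy16. DNAH5 was thus lower in late than in early libraries of both lines, and below lung in all 4. DNAI2, an intermediate chain of the same arm, had 225 and 175 in lung, 7.62 and 8.30 in thyroid, 15.5 and 33.3 in mThy14, and 32.7 and 23.5 in mThy16 (lung against thyroid, adjusted p = 0.0234). DNAH9 (2.34, SE 0.84, adjusted p = 0.154) and DNAH11 (0.77, SE 0.60, adjusted p = 0.466), 2 more outer arm heavy chains, did not pass. DNAH11 varied least of these, from 53.4 in early mThy14 to 173 in lung tissue 1.

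Of the 8 genes of the inner arm and of arm assembly, DNAH3, DNAH6 and DNALI1 were higher in lung. DNALI1, a light intermediate chain of the inner arm, had 379 and 279 normalized counts in lung and 9.80 and 2.77 in thyroid (5.68, SE 1.21, limma adjusted p = 0.0414). In organoids it had 29.5 and 9.37 in early and late mThy14 but 112 and 284 in early and late mThy16. Late mThy16 thus reached the lung range for DNALI1, which mThy14 did not. DNAH6 had 371 and 513 in lung, 18.5 and 2.77 in thyroid, and 20.8 to 62.4 in the TFCO libraries (lung against thyroid 5.67, SE 0.97, adjusted p = 0.0227). DNAH12, by contrast, had between 138 and 282 in all 8 libraries (0.25, SE 0.49, adjusted p = 0.774), and DNAH1 and DNAH2 were at 89.4 or more in all 4 TFCO libraries. ZMYND10, a factor for assembly of the arms in the cytoplasm, had 198 and 169 in lung and 13.8 to 51.4 elsewhere (lung against thyroid, adjusted p = 0.0553).

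Among the ruler, nexin link and tether genes, CFAP43 and CCDC40 were higher in lung. CFAP43, which tethers inner arm heads, had 311 and 521 normalized counts in lung and 1.09 and 1.84 in thyroid, which is 1 and 2 reads. The lung level was 285 times the thyroid level with a counting interval of 97.4 to 1386 (counting error only), and the log2 difference was 7.37 (SE 1.11, limma adjusted p = 0.0161). In organoids CFAP43 had 11.2 and 14.6 in mThy14 and 80.2 and 121 in mThy16, so that all 4 libraries lay above both thyroid tissues and below lung. CCDC40, a part of the coiled-coil ruler that sets the axonemal repeat, had 308 and 256 in lung and 28.3 and 9.22 in thyroid (4.03, SE 0.76, adjusted p = 0.0297). Its partner CCDC39 had 140 and 381 in lung and 54.4 and 35.96 in thyroid and did not pass (2.36, SE 1.03, adjusted p = 0.229). DRC1, which builds the nexin link, stood at 243 and 214 in lung, at 19.6 and 0.922 in thyroid, and at 3.12 to 14.1 in the 4 TFCO libraries.

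RSPH4A, SPAG16 and SPAG17 were the called genes of the radial spokes and central pair. RSPH4A, a spoke head protein, had 328 and 299 normalized counts in lung, 3.27 and 2.77 in thyroid, 15.5 and 1.04 in early and late mThy14, and 77.2 and 113 in mThy16 (lung against thyroid, limma adjusted p = 0.0403). SPAG16, a central pair protein, had 281 and 206 in lung, 0 and 2.77 in thyroid, 12.6 and 0 in mThy14, and 6.93 and 14.5 in mThy16. SPAG17, its central pair neighbour, had 129 and 165 in lung, 0 and 2.77 in thyroid, 19.7 and 0 in mThy14, and 15.8 and 0 in mThy16. Both central pair genes thus stayed far below lung in mThy16 as well. Their lung to thyroid ratios were 160 (54.4 to 776) and 99.5 (33.8 to 485), with counting intervals on 3 thyroid reads each, and their adjusted p values were 0.0184 and 0.0208 by limma. The remaining members of this role were less uniform. RSPH9, another spoke head protein, was highest outside lung, with 963 and 259 in mThy14, 418 and 510 in mThy16, 629 and 310 in thyroid and 292 and 163 in lung (-1.01, SE 0.51, adjusted p = 0.289). RSPH1 had 539 and 334 in lung, 6.53 and 56.2 in thyroid, 26.7 and 13.5 in mThy14 and 71.3 and 102 in mThy16 (4.36, SE 1.16, adjusted p = 0.0774).

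STK36, a kinase tied to the central pair, stood at 335 and 369 normalized counts in early and late mThy16, 32.3 and 27.1 in mThy14, 101 and 87.6 in thyroid and 85.4 and 138 in lung. Its mThy16 libraries lay above all other libraries and its mThy14 libraries below all others, while lung and thyroid overlapped (0.20, SE 1.11, limma adjusted p = 0.926). SPAG6 had 251 and 371 in mThy16, 4.22 and 60.4 in mThy14, 19.6 and 0 in thyroid and 2.51 and 1.35 in lung. Its levels did not overlap between the 2 sets of libraries (mean 141 against 1.29), and it is uncertain because the mouse has a near copy, Spag6l (GRCm38 chr16:16753016-16829456), whose symbol is not among those of the table. SPEF2, a central pair protein, had 431 in thyroid tissue 1 but 35.96 in thyroid tissue 2, 42.2 and 15.6 in mThy14, 7.92 and 3.35 in mThy16, and 126.48 and 154 in lung. HYDIN, a very large protein of the central pair, had 157 and 191 in lung and 4.61 in thyroid tissue 2, but 74.03 in thyroid tissue 1 and 27.7 to 95.8 in TFCOs, and ROPN1L, a radial spoke protein, had 45.2 and 30.3 in lung and 0 to 23.05 elsewhere.

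Of the 8 genes for proteins inside the doublets, 6 were higher in lung than in thyroid on average. The other 2, TEKT1 and CFAP52, were lower. Only TEKT4 passed the test. TEKT4, a tektin, had 177 and 94.4 normalized counts in lung, 1.09 and 5.53 in thyroid and 4.16 to 11.2 in TFCOs (lung against thyroid, limma adjusted p = 0.0354). TEKT1, a second tektin, had 347 and 712 in thyroid, 242 and 153 in lung, 135 and 11.4 in early and late mThy14 and 58.4 and 58.1 in mThy16. TEKT1 was thus highest in thyroid tissue, and every TFCO library lay below every tissue library. CFAP52 had 240 and 290 in thyroid, 168 and 155 in lung, 158 and 93.9 in mThy16 but 1.41 and 8.33 in mThy14. CFAP126 had 554 and 268 in lung, 430 and 559 in mThy16, 50.1 and 41.5 in thyroid and 22.5 and 35.4 in mThy14. For CFAP52 and CFAP126, mThy16 came near or into the lung range, and mThy14 lay below both tissues. Lung and thyroid differed by -0.70 (SE 1.37, adjusted p = 0.774) for CFAP52, by 3.05 (SE 1.23, adjusted p = 0.200) for CFAP126 and by -1.36 (SE 0.59, adjusted p = 0.226) for TEKT1. TEKT2, another tektin, had 177 and 117 in lung and 6.25 to 38.01 elsewhere, CFAP53 had 114 and 104 in lung and 0 to 23.9 elsewhere, and ENKUR had 240 and 177 in lung, 42.5 and 46.1 in thyroid, 9.84 and 31.2 in mThy14 and 129 and 126.3 in mThy16. TEKT2 and CFAP53 were thus low outside lung in both lines, whereas ENKUR was above thyroid in mThy16.

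TPPP3, a tubulin polymerization protein abundant in ciliated cells, had the highest level of the members in lung, at 6181 and 4084 normalized counts. It had 744 and 588 in thyroid, 61.8 and 26.0 in early and late mThy14 and 162 and 107 in mThy16. The 3 sources did not overlap, and lung exceeded thyroid by 2.92 (SE 0.58, limma adjusted p = 0.0341). DYNLRB2, a dynein light chain, had 714 and 334 in lung, 31.6 and 3.69 in thyroid and 19.0 to 39.6 in TFCOs (lung against thyroid, adjusted p = 0.0341). CAPSL, a calcium-binding protein, had 921 and 1196 in mThy16, 88.5 and 57.2 in mThy14, 385 and 218 in thyroid and 222 and 155 in lung (-0.64, SE 1.13, adjusted p = 0.753). AK7, an adenylate kinase of cilia, had 389 and 334 in lung, 137 and 265 in thyroid, 160 and 115 in mThy14 and 15.8 and 16.8 in mThy16 (0.91, SE 0.97, adjusted p = 0.588), and it is among the genes that did not overlap between the 2 sets of libraries.

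TFCOs against thyroid tissue compared the organoids with the tissue they were derived from. Of the 48 genes, 0 were higher and 2 were lower in TFCOs at an adjusted p under 0.05 (limma, 2 lines against 2 tissues), against 0.599% and 3.05% of all genes tested. At an unadjusted p under 0.05, 9 of the 48 passed, which is 18.8%, beside 18.6% of all genes. On whole reads of the late TFCOs and tissues, edgeR called 1 of the 48 higher and 0 lower (0.32% and 2.03% of all genes), and DESeq2 called 5 higher and 3 lower (2.87% and 9.4%). The 2 genes were TEKT1, with a log2 difference of -3.34 (SE 0.59, adjusted p = 0.0315), and TPPP3, with one of -3.16 (SE 0.58, adjusted p = 0.0351). For both, all 4 TFCO libraries lay below both thyroid tissues. Without thyroid tissue 1 the counts were 7 higher and 2 lower, without thyroid tissue 2 or without either lung tissue they were 0 and 0, and without early mThy14 they were 1 and 2. The median difference over the 48 genes was 0.42, beside 0.05 over all genes tested, with 32 positive and 16 negative, and it ran from 0.03 without thyroid tissue 2 to 0.85 after quantile normalization. Within the set of thyroid tissue 1, the only tissue that shares the organoids' set, the median was 0.03, with 25 above 0 and 23 below.

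The 2 lines were placed differently against thyroid tissue. In mThy16, 26 of the 48 genes lay above both thyroid tissues at both passages (30.9% of all genes) and 9 lay below (28.2%). In mThy14, 9 lay above (25.9%) and 9 below (24.3%). For 6 of the 48 genes, against 3.46% of all genes, the lines lay on opposite sides of both thyroid tissues. Against thyroid tissue 1 alone, the median difference of the 48 genes was 0.67 in mThy16 and -0.15 in mThy14. The 9 genes above thyroid in mThy14 were FOXJ1, DNAH5, DNAI2, DNAH6, DNAH10, CCDC40, CFAP43, ARMC3 and AK8. Of these, FOXJ1, ARMC3 and AK8 lay close to thyroid tissue 1 in early mThy14. Their reads were 25, 14 and 11 there, against 28, 18 and 12 in thyroid tissue 1.

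TFCOs against lung tissue gave 0 higher and 13 lower genes of 48 (limma, adjusted p under 0.05; 26 of 48 passed at an unadjusted p under 0.05, against 44.7% of all genes), beside 9.83% and 13.5% of all genes tested, with a median of -2.64. On whole reads, edgeR called 0 of the 48 higher and 5 lower (3.69% and 7.99% of all genes), and DESeq2 called 1 higher and 23 lower (16.2% and 17.9%). The lower genes were CCNO, DNAH9, DNAI2, DNAH3, DNAH6, DRC1, SPAG16, SPAG17, TEKT2, TEKT4, CFAP53, TPPP3 and DYNLRB2. CCNO passed the filter on low values only through the lung libraries, where it is high, so its call carries no weight, and without it the count is 12. Without either lung tissue the count of lower genes was 1, and without thyroid tissue 1 or 2 it was 23 or 24. TPPP3 had the largest of these differences at -6.08 (SE 0.58, adjusted p = 0.00154). This comparison lies between the 2 sets of libraries, and it shares the lung libraries with the comparison of lung and thyroid. Taken by line, 42 genes of mThy14 lay below both lung tissues (39.1% of all genes) and 2 above (40.4%), and 35 genes of mThy16 lay below (40.2%) and 8 above (43.1%). The 8 were FOXJ1, RFX2, RFX3, DNAH2, RSPH9, SPAG6, STK36 and CAPSL. Expressed as a percentage of the lung mean, the median gene stood at 26.8% in mThy16, 12.9% in mThy14, 18.4% in thyroid tissue 1 and 7.24% in thyroid tissue 2. By role, mThy16 had a median of 144% of lung over the 5 regulators, 41.4% over the inner arm and assembly genes, 33.5% over the doublet inner proteins, 31.2% over the ruler, link and tether genes, 18.7% over the radial spoke and central pair genes and 17.8% over the outer arm genes. For mThy14 the corresponding medians were 21.1%, 37.7%, 6.98%, 8.29%, 21.9% and 21.6%. For thyroid tissue 1 they were 77.2%, 14.8%, 10.9%, 9.31%, 37.1% and 28.9%. Thyroid tissue 2 had 1.96%, 5.49%, 14.6%, 2.58%, 7.77% and 4.15%. By these medians only, thyroid tissue 1 was above mThy16 for the radial spoke and central pair role and for the outer arm role. Gene by gene, RSPH1, RSPH4A, SPAG6, SPAG16, SPAG17 and STK36 had the opposite order, as did DNAH5 and DNAI2 of the outer arm. The regulator median of mThy16 is the value of RFX2, and CCNO stood at 0% in that line. FOXJ1 itself stood at 537% of lung in mThy16, while 13 of the 48 genes stood under 10% of lung in that line.

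**Figure D3:**
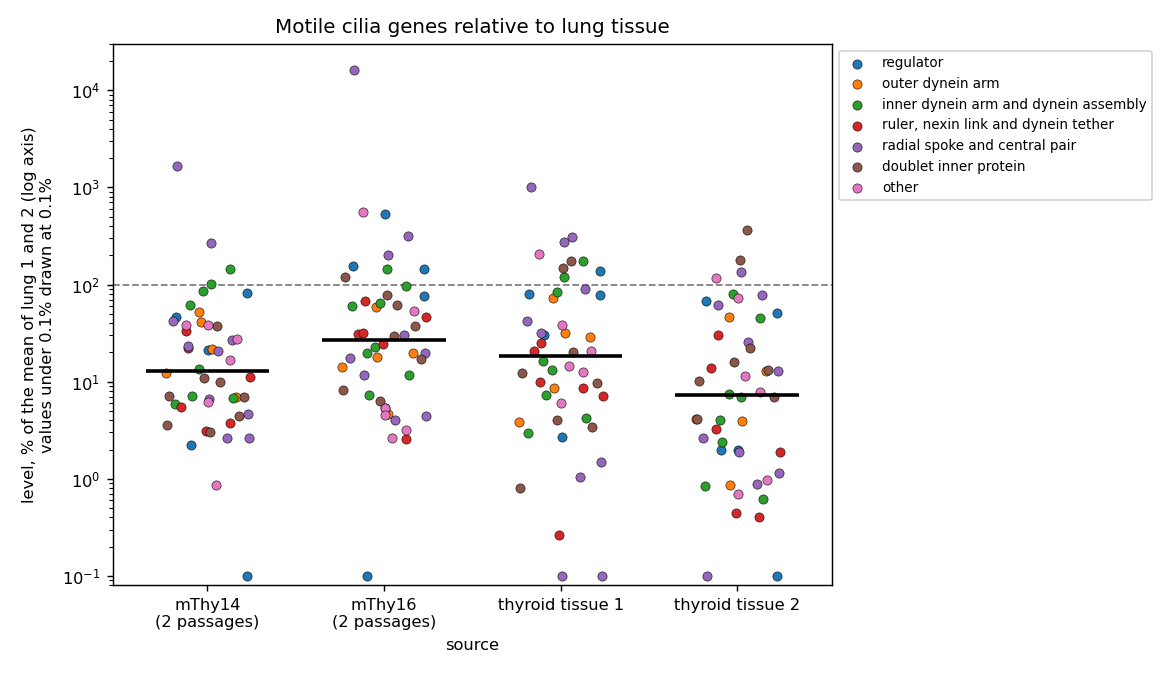
Level of each of the 48 motile cilia genes as a percentage of the mean of the 2 lung tissues (log axis, values under 0.1% drawn at 0.1%) in mThy14, mThy16 and each thyroid tissue; points are genes coloured by role and black bars are medians. The median of mThy16 is 26.8% of lung, with FOXJ1 at 537%, and SPAG6 is the uppermost point in both lines.

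The lines were set side by side at each passage. As each line is 1 source sampled at 2 passages, no test of the line was possible, and the counts are a description. At both passages, 18 of the 48 genes were at least 2-fold higher in mThy16 than in mThy14 and 5 were at least 2-fold lower, which is 37.5% and 10.4% of the genes, against 7.96% and 6.32% of all genes tested. The median difference, averaged over the passages, was 0.81 on the log2 scale, beside -0.04 over all genes tested. FOXJ1 differed by 7.40 at the early and 3.76 at the late passage, CFAP52 by 6.05 and 3.35, CFAP126 by 4.20 and 3.94, CAPSL by 3.36 and 4.36, and STK36 by 3.33 and 3.72. The other 13 genes at least 2-fold higher in mThy16 were CCDC39, CFAP43, CFAP44, DNAH9, DNALI1, ENKUR, IQCG, MCIDAS, MNS1, RSPH1, RSPH4A, SPAG6 and TPPP3. MCIDAS rests on at most 9 reads per library. The 5 genes lower in mThy16 were AK7, AK8, DNAH10, DNAI1 and SPEF2, with AK7 at -3.26 and -2.70. By role, 4 of 6 ruler, link and tether genes, 4 of 8 doublet inner proteins, 4 of 10 radial spoke and central pair genes, 2 of 5 regulators, 1 of 5 outer arm genes and 1 of 8 inner arm and assembly genes were higher in mThy16.

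**Figure D4:**
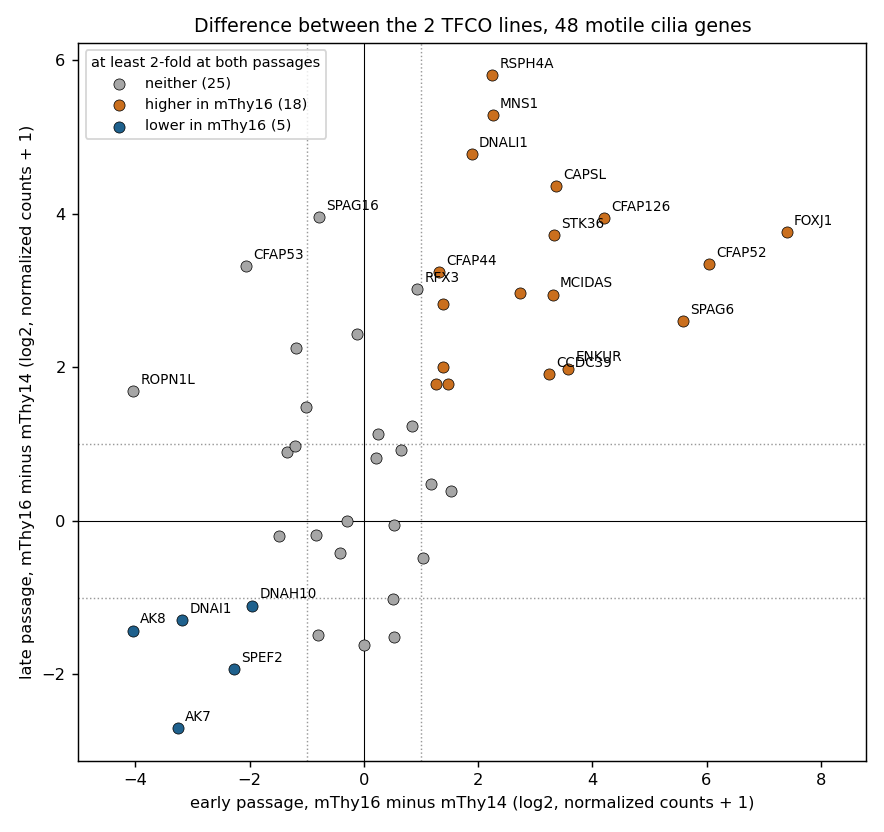
Difference between the TFCO lines (mThy16 minus mThy14, log2 of normalized counts + 1) at the early passage (horizontal axis) and at the late passage (vertical axis) for the 48 motile cilia genes, with dotted lines at 2-fold. The 18 orange genes are at least 2-fold higher in mThy16 at both passages, with FOXJ1 farthest to the right, and the 5 blue genes are at least 2-fold lower.

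Promoters of the genes were searched for motifs of the regulators. RefSeq windows from 250 bases before to 50 bases after the start of transcription were at hand for 42 of the 48 genes. The RFX half-site GTTGCCA, on either strand, was in a window of 10 of the 42 genes (23.8%), against 5.02% of the 27025 genes with a window. The full X-box, in which a pair of half-sites face each other, was in 0 of 42 (0.529% of all), and the forkhead motif TGTTTAC was in 2 of 42, AK7 and CFAP43 (4.76%, against 4.05% of all). The half-site and the X-box can overlap. Of the 14 genes with a window that were at least 2-fold higher in mThy16, 4 held the half-site (28.6%), and of the other 28, 6 did (21.4%). Such a match is a description of the letters and not a binding site. Windows of 4 genes are printed because they show the site in 3 genes higher in mThy16, Cfap44 with 2 copies, Iqcg and Mns1, and in Tekt1, which was lower in TFCOs than in thyroid. Capitals mark the half-site, which reads TGGCAAC where it lies on the other strand, and letters run 5′ to 3′ on the strand of the gene. Counting the first transcribed base as 1 and the base before it as -1, the sites begin at -130 and -20 in Cfap44, -19 in Iqcg, -73 in Mns1 and -15 in Tekt1. The windows lie in GRCm38.p6 at chr16:44394549-44394848 (plus strand) for Cfap44, chr16:33056137-33056436 (minus strand) for Iqcg, chr9:72438279-72438578 (plus strand) for Mns1 and chr11:72361833-72362132 (minus strand) for Tekt1.
Cfap44: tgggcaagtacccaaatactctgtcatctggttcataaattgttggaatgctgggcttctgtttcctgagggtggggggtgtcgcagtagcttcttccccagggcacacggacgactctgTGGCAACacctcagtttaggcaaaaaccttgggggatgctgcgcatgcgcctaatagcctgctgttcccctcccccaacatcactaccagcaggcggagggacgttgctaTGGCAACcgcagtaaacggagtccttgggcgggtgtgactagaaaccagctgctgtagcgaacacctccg
Iqcg: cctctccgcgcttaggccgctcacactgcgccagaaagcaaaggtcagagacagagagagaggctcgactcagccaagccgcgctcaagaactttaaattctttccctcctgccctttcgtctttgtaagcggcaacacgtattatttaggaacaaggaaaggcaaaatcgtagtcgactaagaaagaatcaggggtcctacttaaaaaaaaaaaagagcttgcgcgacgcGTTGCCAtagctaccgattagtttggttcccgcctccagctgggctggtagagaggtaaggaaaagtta
Mns1: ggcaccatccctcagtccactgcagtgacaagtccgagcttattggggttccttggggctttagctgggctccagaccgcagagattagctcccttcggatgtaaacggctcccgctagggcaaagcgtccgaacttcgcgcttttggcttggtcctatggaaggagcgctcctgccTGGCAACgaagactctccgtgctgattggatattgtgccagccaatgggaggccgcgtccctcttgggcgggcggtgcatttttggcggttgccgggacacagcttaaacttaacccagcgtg
Tekt1: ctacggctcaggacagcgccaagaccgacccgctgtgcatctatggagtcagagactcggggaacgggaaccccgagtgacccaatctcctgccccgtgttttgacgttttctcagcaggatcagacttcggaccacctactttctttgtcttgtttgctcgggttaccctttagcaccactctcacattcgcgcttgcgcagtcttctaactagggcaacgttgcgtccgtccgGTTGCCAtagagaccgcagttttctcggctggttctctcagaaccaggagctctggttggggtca
Beside these sequences, CFAP44 stood at 42.2 and 11.4 normalized counts in early and late mThy14 and 107 and 116 in mThy16, IQCG 47.8 and 32.3 against 134 and 113, MNS1 11.2 and 0 against 57.4 and 38.01, and TEKT1 the levels given above. Among the 10 genes with the half-site were thus 4 higher in mThy16 and 6 others, CCNO, DNAH10, DRC1, HYDIN, TEKT1 and ZMYND10, of which DNAH10 was at least 2-fold lower in mThy16.

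Other genes of cilia were read the same way. Of 54 primary cilium and intraflagellar transport genes, which serve the cilium of follicular cells, 16 were at least 2-fold higher in mThy16 at both passages. A further 1, MKS1, was at least 2-fold lower, and the median was 0.83. Over all genes tested the shares were 7.96% and 6.32%. PKD2, a calcium channel of primary cilia, stood at 173 and 255 normalized counts in early and late mThy14 and 874 and 1126 in mThy16. IFT57, a subunit of the transport complex, had 174 and 367 in mThy14 and 1106 and 1393 in mThy16. The most abundant transport genes, IFT172 and IFT46, differed less between the lines, with 707 and 662 against 830 and 687 for IFT172, and 707 and 714 against 1119 and 920 for IFT46. Between lung and thyroid 1 of the 54 genes was called, TRAF3IP1, higher in lung (limma adjusted p = 0.0442), and 0 were lower. Over all genes tested 3.16% were higher and 2.89% lower. The median of the 54 genes was 0.20, unlike the 3.10 of the motile cilia genes. Between TFCOs and thyroid 0 of 54 were called in either direction (0.599% higher and 3.05% lower over all genes). At an unadjusted p under 0.05, 1 passed (18.6% of all genes).

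A second list of motile cilia genes, outside the 48, had 57 tested genes. Of these, 19 were at least 2-fold higher and 4 at least 2-fold lower in mThy16 (7.96% and 6.32% of all genes), with a median of 0.68. In lung against thyroid, 11 were called higher and 0 lower (3.16% and 2.89% of all genes), with a median of 2.89 on the log2 scale. CFAP69 stood at 0 and 8.33 normalized counts in early and late mThy14 and 767 and 699.8 in mThy16, against 190.1 and 301 in lung. NME5 had 11.2 and 61.4 in mThy14 and 334 and 345 in mThy16. The tubulin genes TUBA1A and TUBB4B, the most abundant of this list, differed little between the lines: TUBA1A had 12488 to 13433 and TUBB4B 5237 to 6928 in the TFCO libraries. Of 19 genes of the multiciliated programme, 3 were at least 2-fold higher in mThy16 and 0 lower (7.96% and 6.32% of all genes), with a median of 0.38. In lung against thyroid, 1 of the 19 was called higher and 1 lower (3.16% and 2.89% of all genes). The median there was 0.06, with 10 positive and 9 negative. In TFCOs against lung, 2 were called higher and 3 lower (9.83% and 13.5% of all genes), with a median of -0.24. The list as a whole thus did not share the order of the 2 genes that follow. GMNC, which acts with MCIDAS at the top of the programme, had 0 and 0 in mThy14, 1.98 and 7.83 in mThy16 and 23.5 and 53.9 in lung, and DEUP1, a protein of the deuterosomes that multiply centrioles, had 0 to 2.97 in TFCOs and 57.8 and 53.3 in lung. IFT57, TRAF3IP1, MKS1, CFAP69, NME5, GMNC and DEUP1 were picked after their values were seen.

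**Figure D5:**
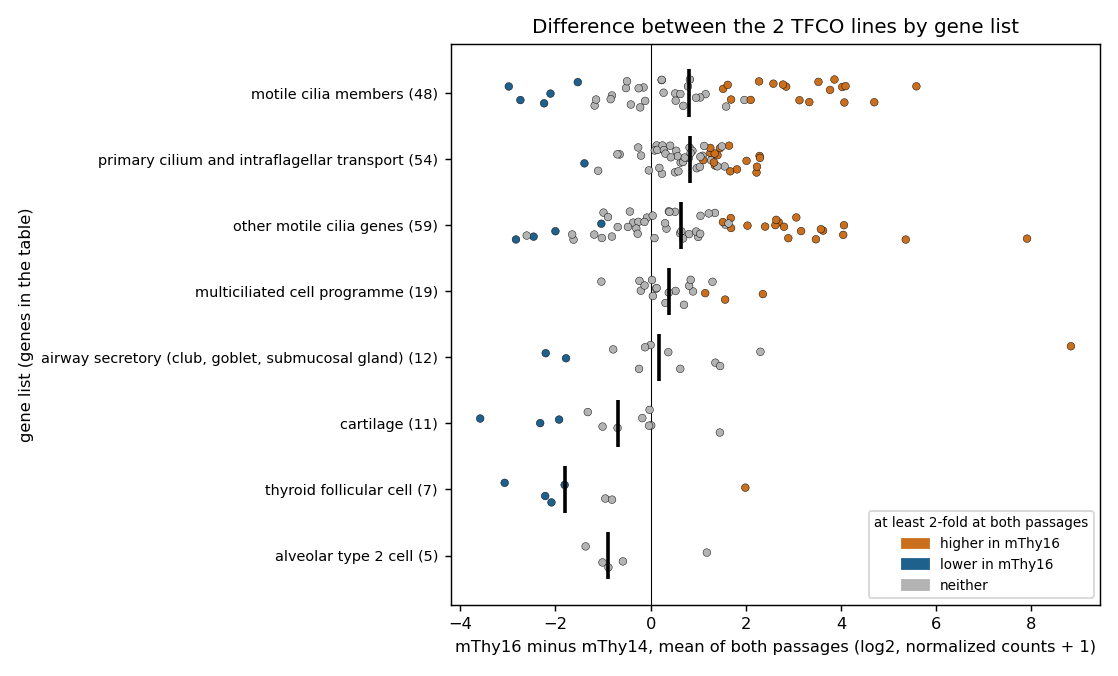
Difference between the TFCO lines (mThy16 minus mThy14, mean of both passages, log2 of normalized counts + 1) for each gene of 8 lists, with 1 point per gene and a black bar at each median. The medians are 0.81 for the 48 motile cilia genes, 0.83 for primary cilium genes and -1.81 for thyroid follicular cell genes.

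Markers of other cell types moved with some of these differences, and their part in the results was not tested. The 7 airway secretory markers in the table (SCGB1A1, SCGB3A1, SCGB3A2, BPIFA1, BPIFB1, MUC5B and TFF2) summed to 690885 and 278558 normalized counts in lung, to 97.0 to 198 in the 4 TFCO libraries, to 108 in thyroid tissue 1 and to 2664 in thyroid tissue 2. SCGB3A2 was at 0 in all 4 TFCO libraries. SCGB1A1 made up most of the lung sums (665857 and 261418). In a longer list of airway secretory genes, of which 12 were tested, not all had their highest level in lung: the mucin MUC5AC had 245 to 299.8 in TFCOs, 196 and 0.922 in thyroid and 26.0 and 8.09 in lung, and AGR2 had 0 to 60.4 in TFCOs, 198 and 200.1 in thyroid and 27.6 and 19.5 in lung. The 8 multiciliated markers, all of them members, summed to 3217 and 2395 in lung, 552 and 586 in early and late mThy14, 6799 and 6800 in mThy16, and 544 and 842 in thyroid. FOXJ1 makes up most of the mThy16 sums, as its levels above show. The 5 follicular markers, all above 0 in every TFCO library, summed to 151565 and 91691 in mThy14 and to 21347 and 17528 in mThy16, and TG had 126441 and 64646 in mThy14 against 12225 and 9532 in mThy16. LTF, an iron-binding protein of secretory epithelia, had 33.7 and 405 in mThy14 and 52989 and 55098 in mThy16, so that the line with more motile cilia RNA also had less thyroglobulin RNA and more lactoferrin RNA. The 5 cartilage markers summed to 857 and 541 in mThy14, 321 and 197 in mThy16, 453 and 228 in thyroid and 508 and 239 in lung, with COL2A1, ACAN and MATN1 at 0 in lung tissue 1. The lung sums were almost wholly CHAD (506 and 233), and over 11 tested cartilage genes the median of lung against thyroid was -2.75, with 10 negative.

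Late against early TFCOs compared the same lines before and after further culture. With both lines in each group, 0 of 48 genes were higher and 0 lower at late passage (limma, adjusted p under 0.05, 0% and 0% of all genes tested), and 1 passed at an unadjusted p under 0.05 (1.13% of all genes). Count tests were not run for this comparison. Within mThy14, 19 genes were at least 2-fold lower at the late passage (16.6% of all genes) and 7 at least 2-fold higher (8.88%), with a median of -0.59 beside -0.04 over all genes. Within mThy16, 4 were at least 2-fold lower (6.99%) and 5 at least 2-fold higher (7.68%), with a median of 0.10. FOXJ1 went from 35.1 to 442 normalized counts in mThy14 and from 6122 to 6016 in mThy16, so the passages differed in the line where it was low. These values compare 1 library with 1 library and have no replicate check.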

How the data were processed

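RNA of 8 mouse libraries was measured by bulk mRNA sequencing. Per the study's methods, TruSeq stranded polyA libraries were sequenced paired-end, mapped to the mouse genome and normalized with DESeq2; the sample labels instead describe an adapted CEL-Seq protocol. The submitters' processing notes name BWA 0.6.2-r126 and the builds mm10 and hg38, with no role. The authors deposited 1 table of normalized counts (signal: read counts divided by a size factor per library) for 16119 symbols in capitals. Values above 0 were whole multiples of 1 step per library (tolerance 0.01 reads, 100% whole), which gave 9755081 to 16904865 reads on genes. The step of early mThy16 was 0.990, close to 1. Count tests were run on the late TFCO, thyroid and lung libraries only, so no early TFCO library entered them.

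limma 3.58.1 (R 4.3.3, eBayes with trend, Benjamini-Hochberg) was fitted to log2(normalized counts + 1) of the 14703 genes that reached 10 in 2 libraries; the pseudocount lowers fold changes of weakly expressed genes. Passages of a line were averaged for TFCOs against tissue, which leaves 2 lines, 2 thyroid and 2 lung tissues in 1 fit; late against early used all 8 libraries. The line pairs an early with a late library, and the line difference correlated across genes at 0.477 between passages. With 2 against 2, an exact two-sided permutation test cannot go below 0.333, so none is given. Differences between lines were described at a fold of 2 at both passages, with no test, a rule chosen after the data were seen. Motile cilia genes and all other lists were chosen with earlier results of these data known. Fold changes with SE are given for the 5 regulators, the 3 members of each other role with the largest mean level, and members called in TFCOs against thyroid tissue or by passage; other genes of a list are the 4 most abundant or those called in TFCOs against thyroid tissue, unless said otherwise. Levels per kb used exon lengths of GENCODE M21 (46 of 48 members matched). Promoter windows came from RefSeq (GRCm38.p6). The fit was tested on simulated counts. Alternatives were the pseudocount, filters, 2 normalizations, no trend, the libraries in the fit, a replicate block, leaving out each library, and edgeR 4.0.16, DESeq2 1.42.0 and limma voom on whole reads.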

Additional observations from a re-analysis of the deposited data

Results flagged for a closer look

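Of the 48 motile cilia genes, 6 lay on opposite sides of thyroid tissue in the 2 TFCO lines, with both libraries of 1 line above and both libraries of the other line below both thyroid tissues, against 3.46% of all genes tested. The difference between the lines was not tested, since each line is 1 source. On the log2 scale, mThy14 minus thyroid tissue was -1.74 for CCDC39, -1.64 for STK36, -0.67 for CFAP126, -1.28 for ENKUR and -2.01 for CAPSL, whereas mThy16 minus thyroid tissue was 0.84 for CCDC39, 1.89 for STK36, 3.40 for CFAP126, 1.51 for ENKUR and 1.85 for CAPSL. AK8, an adenylate kinase, had the opposite order, at 0.69 in mThy14 and -2.04 in mThy16, on 0 to 19.8 normalized counts in TFCOs. Its early mThy14 library lay only narrowly above thyroid tissue 1, on 11 reads against 12.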

How the results depend on the processing

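Over all alternatives run, the median of the motile cilia genes ran from 2.40 to 3.43 for lung against thyroid tissue, from 0.03 to 0.85 for TFCOs against thyroid tissue, from -2.76 to -2.12 for TFCOs against lung tissue and from -1.01 (without late mThy16) to 0.38 (without late mThy14) for late against early TFCOs. For lung against thyroid tissue (13 higher), the count was 4 with only those groups in the fit, and 3 with edgeR, 23 with DESeq2 and 6 with voom on the whole reads of the late TFCO and tissue libraries, and it ranged from 0 (without either lung tissue) to 17 (without thyroid tissue 2) over libraries left out. For TFCOs against thyroid tissue, 1 gene was higher with TFCO libraries as separate samples, 1 with edgeR and 5 with DESeq2, and 0 to 7 over libraries left out, 7 being without thyroid tissue 1; the 2 lower genes became 1 without a trend, 0 with only those groups, 0 with edgeR, 0 with voom and 3 with DESeq2, and 0 to 2 over libraries left out. For TFCOs against lung tissue (13 lower), the count was 8 after quantile normalization, 24 with only those groups, 21 with separate samples, 5 with edgeR and 23 with DESeq2, and 1 to 24 over libraries left out; higher genes were 1 with only those groups and 1 with DESeq2, and 0 to 1 over libraries left out. Leaving out a library can leave 1 sample in a group, which is then taken to vary like the others. For late against early TFCOs, the count was 0 in both directions in every alternative run; with the line as a replicate block it was 0 higher and 0 lower, with 2 members at an unadjusted p under 0.05. The other comparisons average the passages of each line and were not fitted with that block.

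Directions reversed for some small differences, none of them called. STK36 in lung against thyroid was -0.15 after quantile normalization and ranged from -0.14 to 0.55 over libraries left out, DNAH12 from -0.073 to 0.58 and MCIDAS from -0.48 to 3.44. In TFCOs against thyroid, RFX3 was -0.32 with voom and ranged from -0.36 to 0.51, and MCIDAS from -2.36 to 1.56. Quantile normalization moved the median of all genes to -0.14 in lung against thyroid, 0.17 in TFCOs against thyroid and 0.32 in TFCOs against lung. The 18 genes higher in mThy16 at both passages were 17 at a pseudocount of 10, 19 after quantile normalization, 20 scaled to the same total and 10 at 4-fold, beside 3.07% of all genes at 4-fold; the 5 lower genes were 1 at a pseudocount of 10 and 1 at 4-fold. The cause of these changes was not tested. The count tests on late TFCOs and the line settings were chosen after seeing the data, and count tests for late against early were not run. The low counts limit what can be said of MCIDAS, CCNO and of 3 to 9 members per TFCO library that stood at 3 reads or fewer, as did 5 members in thyroid tissue 1 and 11 in thyroid tissue 2.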
